A study of Mus musculus with 48 samples.

Results

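The transcription factor NRF2, encoded by *Nfe2l2*, controls a set of antioxidant genes, of which 10 were followed here through the first week of experimental stroke: *Srxn1*, *Prdx1*, *Txnrd1*, *Gsr*, *G6pdx*, *Slc7a11*, *Gclc*, *Gclm*, *Nqo1* and *Osgin1*. The genes were taken by name, each matched 1 Ensembl identifier among the 46983 genes listed in the count tables, and all 10 passed the filter of more than 10 counts over all libraries, which left 19970 genes for testing. The 48 libraries of 3′ mRNA counts came from 11 groups of C57Black/6 male mice, 3 months old, with no genetic change in any group. In the MCAO groups the middle cerebral artery was coagulated and cut, which closes it for good, and tissue was taken at 3 h, 12 h or 24 h, or on day 3 or day 7, from 5 mice each (4 at 24 h). Sham-operated mice went through the surgery without coagulation at each of the same times (n = 4 each), and control mice (n = 4) gave intact cortex without surgery. The sample protocol describes the injured part of the cortex with affected and unaffected tissue together, so each library mixes lesion, its border and spared tissue, and a separate mouse is 1 replicate. The design text of the series instead names forebrain hemispheres, 3 per time point, and the sample labels were followed here. In such bulk tissue, fewer cells of a type and less RNA per cell cannot be told apart.

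Under basal conditions the adaptor KEAP1 holds NRF2 in the cytoplasm and passes it to degradation. Oxidants and electrophiles modify KEAP1, NRF2 then enters the nucleus with a small MAF protein, and the pair binds the antioxidant response element in the promoters of its targets, a site for which BACH1 competes as a repressor. The targets rebuild glutathione and thioredoxin, the main thiol buffers of the cell, supply NADPH for them and detoxify quinones, and in brain this programme is known best from astrocytes.

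The 250 bases before the annotated start are given for *Srxn1*, *Prdx1* and *Txnrd1*, the members on which the comparisons with sham and control turn. They were read from RefSeq on GRCm38.p6, 5′ to 3′ on the strand of the gene, and all 3 genes lie on the plus strand. The windows are chr2:152105274-152105523 for *Srxn1*, chr4:116685349-116685598 for *Prdx1* and chr10:82858956-82859205 for *Txnrd1*, the last being the 1 of 3 annotated starts whose window holds a match. Capitals mark matches on either strand to the core of the antioxidant response element, TGACNNNGC, or to the related AP-1 site, TGACTCA.
Srxn1: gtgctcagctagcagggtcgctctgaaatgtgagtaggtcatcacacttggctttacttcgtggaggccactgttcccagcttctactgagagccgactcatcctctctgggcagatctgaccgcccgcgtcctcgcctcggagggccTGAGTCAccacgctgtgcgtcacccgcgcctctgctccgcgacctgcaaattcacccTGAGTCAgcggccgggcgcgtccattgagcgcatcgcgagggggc
Prdx1: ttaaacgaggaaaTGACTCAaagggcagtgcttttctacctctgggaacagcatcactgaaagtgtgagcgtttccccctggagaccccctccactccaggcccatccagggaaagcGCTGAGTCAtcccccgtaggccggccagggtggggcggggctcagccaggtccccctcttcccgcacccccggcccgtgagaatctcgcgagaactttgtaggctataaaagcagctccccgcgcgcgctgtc
Txnrd1: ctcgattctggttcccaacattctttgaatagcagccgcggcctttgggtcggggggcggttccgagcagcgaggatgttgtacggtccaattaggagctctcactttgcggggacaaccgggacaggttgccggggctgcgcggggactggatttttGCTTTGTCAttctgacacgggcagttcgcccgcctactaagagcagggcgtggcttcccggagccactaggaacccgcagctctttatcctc
In the *Srxn1* window both capital runs match TGACTCA, and its TGACNNNGC match lies after the start, at bases 29 to 37, and is not shown. In the *Prdx1* window the match nearer the start fits both letter patterns at once, over the same bases, and the farther one matches TGACTCA only. The *Txnrd1* window holds 1 TGACNNNGC match. RefSeq windows of 300 bases (250 before and 50 after the start) were at hand for 8 of the 10 members, in 10 windows, and not for *Gclc* and *Gsr*. TGACNNNGC was found in at least 1 window of 5 members (*Srxn1*, *Prdx1*, *Txnrd1*, *Gclm* and *G6pdx*) and TGACTCA in those of 3 (*Srxn1*, *Prdx1* and *Osgin1*). By window these were 5 and 3 of the 10, against 12.4% and 5.19% of all 32544 promoter windows. The members were taken as named NRF2 targets, so this difference is not an independent result. A match describes letters and no binding was measured.

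Gene counts ranged from 1522668 to 2826735 per library. Levels are given as CPM, the counts of a gene relative to library size with TMM scaling. Because the counts were taken at transcript 3′ ends, levels are compared between groups and not between genes. Fold changes are log2 with standard errors from one edgeR quasi-likelihood fit over all libraries, and a gene is called where the adjusted p is below 0.01 and the log2 fold change exceeds 0.58 in size. The 10 neuronal markers checked were found in all groups. Some MCAO libraries and control replicate A stood apart from the rest of their group in markers of other cells or of striatum. Some of them are named again beside results they touch. Control replicate A had 498.8 CPM of the 4 choroid plexus markers tested, against 0.569 to 2.81 CPM in the other controls. At 3 h the 6 striatal markers tested summed to 2169 CPM in MCAO replicate A and 2113 CPM in B, against 349 to 783 CPM in the others. MCAO replicate D had 1315 CPM at 12 h against 358 to 491 CPM, and 2515 CPM on day 3 against 299 to 1348 CPM. Control libraries ranged from 565 to 1622 CPM and sham libraries at 12 h from 568 to 2035 CPM. At 24 h MCAO replicate D had 3761 CPM of the striatal markers, against 246.5 to 1748 CPM in the other MCAO libraries. Its 7 oligodendrocyte markers summed to 4897 CPM against 1168 to 2372 CPM. On day 3 the summed level of 10 microglial markers was 773 CPM in replicate A against 1630.0 to 3175 CPM in the other MCAO libraries, and the sum of 5 monocyte and macrophage markers was 31.5 CPM against 232 to 873 CPM. On day 7 replicate C had 4519 CPM of the microglial markers against 1053 to 1495 CPM, 5462 CPM of 6 fibroblast markers against 164 to 508 CPM and 4070.0 CPM of the monocyte and macrophage markers against 99.8 to 196 CPM.

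In every MCAO library *Srxn1* lay above all sham libraries at 3 h, 12 h and 24 h and below them all on day 7, while *Prdx1* and *Txnrd1* rose on day 3. Against sham, *Prdx1* rose by 1.10 ± 0.20 and *Txnrd1* by 1.15 ± 0.24 on day 3, the only members called in that comparison at any time, on a day when 3.76% of all genes tested were called higher. Against unoperated control, *Srxn1* was called higher at 12 h (1.19 ± 0.22) and 24 h (1.08 ± 0.23), where 0.386% and 0.12% of all genes were. The other 7 members were not called at any single time. Lying wholly above sham was seen for 2.26%, 2.03% and 3.76% of all genes at 3 h, 12 h and 24 h, and wholly below for 5.11% on day 7.

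**Figure D1:**
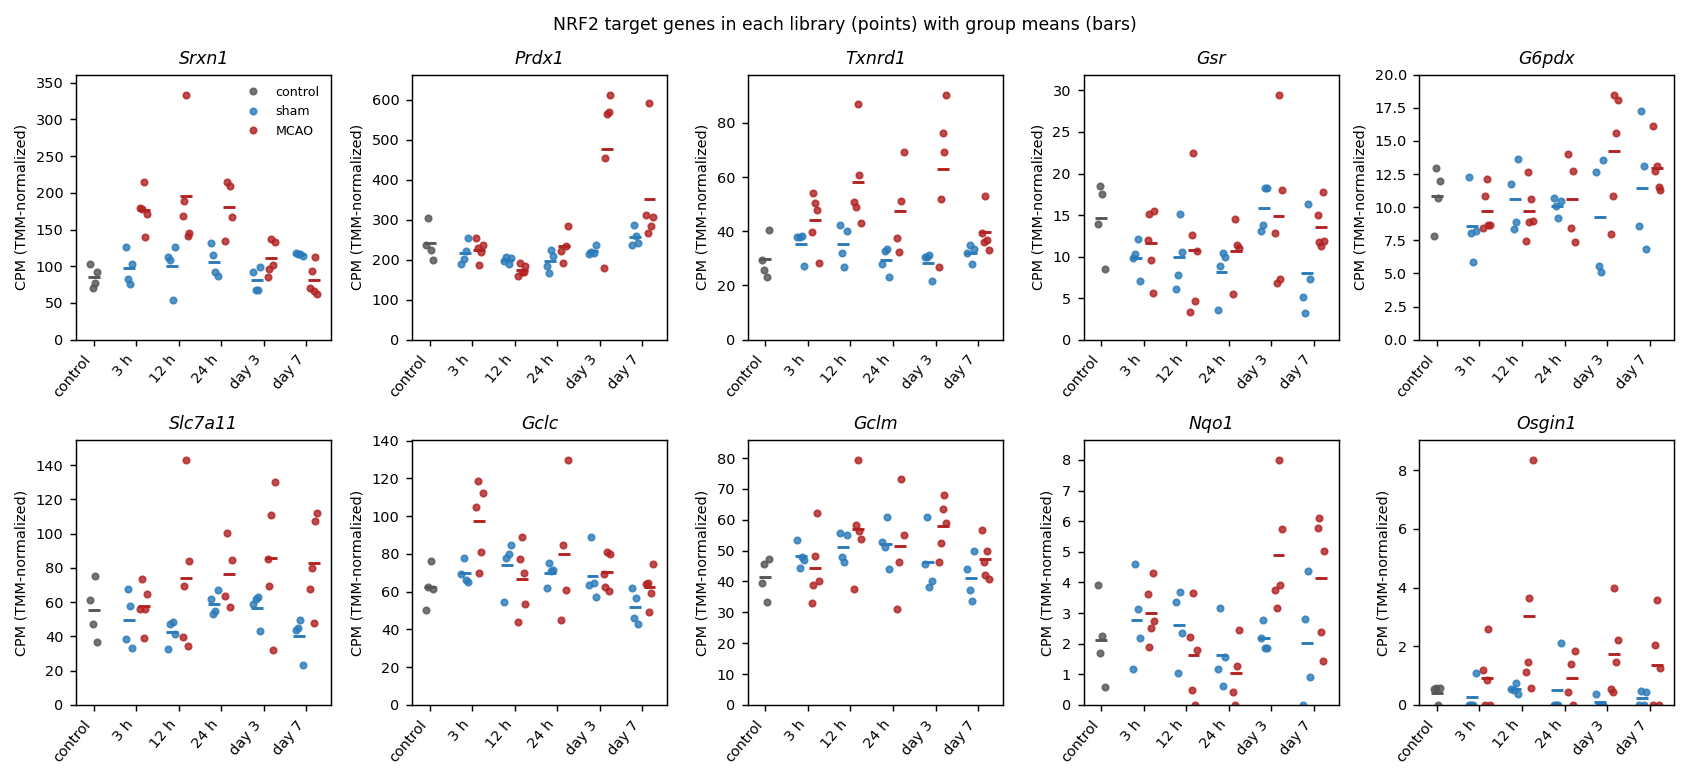
Levels of the 10 NRF2 target genes in all 48 libraries, 1 panel per gene, with CPM on the vertical axis and the 11 groups on the horizontal axis. Each point is 1 library and each bar is the group mean. *Srxn1* points after MCAO lie above all sham points at 3 h, 12 h and 24 h and below them on day 7, and 4 of 5 *Prdx1* points lie far above sham on day 3.

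Whether surgery alone changed these genes was asked by setting each sham group against control. No member was called at any of the 5 times in edgeR's test or in DESeq2, and none reached an unadjusted p below 0.05. Over all genes tested 0% were called at 3 h, 0.0351% at 12 h, 0.01% at 24 h and 0% on day 3 and day 7. Of these 19970 genes, 735, 1086, 863, 731 and 1605 had an unadjusted p below 0.05 at the 5 times. Log2 differences of the members from control ran from -0.64 to 0.36 at 3 h, -0.53 to 0.35 at 12 h, -0.83 to 0.37 at 24 h, -1.53 to 0.16 on day 3 and -0.88 to 0.44 on day 7. The lowest of these values belonged to the sparsely counted *Osgin1* at 2 of the 5 times.

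*Srxn1* encodes sulfiredoxin, the enzyme that reduces overoxidized peroxiredoxins back to their active form. The gene lies on chromosome 2 at 152105516 to 152111376 on the plus strand (GRCm38) and drew 12009 counts over the 48 libraries. Control cortex had 103, 70.8, 76.7 and 91.7 CPM of *Srxn1*. The highest of these, control replicate A, was the library that stood apart in choroid plexus markers. At 3 h *Srxn1* stood at 179, 178, 214, 140.0 and 172 CPM after MCAO and at 126, 82.3, 75.3 and 104 CPM after sham surgery. The 5 MCAO libraries all lay above the 4 sham libraries. At 12 h the MCAO libraries had 168, 189, 333, 142 and 146 CPM and the sham libraries 113, 108, 54.3 and 127 CPM. The groups again did not overlap, and replicate C was far above the other MCAO libraries. At 24 h the values were 134, 214, 209 and 168 CPM after MCAO and 132, 115, 92.1 and 86.5 CPM after sham surgery, with the lowest MCAO library just above the highest sham library. On day 3 *Srxn1* stood at 85.4, 96.7, 137, 102 and 133 CPM after MCAO and 91.8, 67.4, 68.2 and 98.4 CPM after sham surgery, and the ranges overlapped. By day 7 the MCAO libraries held 69.8, 93.6, 66.0, 112 and 62.0 CPM and the sham libraries 118, 117, 116 and 114 CPM. The order was now turned, with every MCAO library below every sham library, and the sham libraries of that day had the smallest SD of all groups for this gene.

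Group means of *Srxn1* were 177 ± 26.4 CPM (SD, n = 5) against 96.9 ± 23.1 CPM (SD, n = 4) at 3 h, 196 ± 79.3 CPM (SD, n = 5) against 100.4 ± 31.7 CPM (SD, n = 4) at 12 h and 181 ± 37.9 CPM (SD, n = 4) against 106 ± 20.9 CPM (SD, n = 4) at 24 h. The log2 fold changes were 0.86 ± 0.22 (adjusted p = 0.0688), 0.96 ± 0.22 (adjusted p = 0.0125) and 0.77 ± 0.23 (adjusted p = 0.178), and none of them passed the threshold on p. Day 3 gave 0.44 ± 0.22 (adjusted p = 0.228) and day 7 -0.52 ± 0.22 (adjusted p = 0.128). Without replicate C of the MCAO group the 12 h value was 0.69 (adjusted p = 0.0914), and without replicate D it was 1.06 (adjusted p = 0.00508), which passed. The 12 h difference also passed in DESeq2, at 0.97 with an adjusted p of 0.00173, and in edgeR without the filter on low counts. Against control, *Srxn1* differed by 1.05 ± 0.22 at 3 h (adjusted p = 0.0118), 1.19 ± 0.22 at 12 h (adjusted p = 0.000925, called) and 1.08 ± 0.23 at 24 h (adjusted p = 0.00844, called). The 12 h call was lost without MCAO replicate C or control replicate B, and the 24 h call without MCAO replicate B, C or D or any 1 of the 4 control libraries. Neither call held with ERCC scaling, and the 12 h call was also lost in a fit of only the groups compared, where the 24 h call held. With the replicate letter as a block the 24 h call was lost. On day 3 and day 7 *Srxn1* differed from control by 0.37 ± 0.22 (adjusted p = 0.355) and -0.08 ± 0.22 (adjusted p = 0.941). Over the 11 groups, mean *Srxn1* was highest in MCAO mice at 12 h, followed by 24 h and 3 h, which differed from each other by less than their SDs. The step from the lowest of these 3 to the highest sham group, sham on day 7 at 116 ± 1.65 CPM (SD, n = 4), was larger than both SDs. MCAO on day 7, at 80.8 ± 21.5 CPM (SD, n = 5), had the lowest mean of all groups, within the SD of control at 85.6 ± 14.7 CPM (SD, n = 4). Sham surgery on day 7 differed from control by 0.44 ± 0.23 on the log2 scale (adjusted p = 0.631), which was not called. Markers of blood cells also stood higher in these MCAO libraries. The 5 erythroid markers checked summed to 179.9 to 627 CPM after MCAO and 10.4 to 97.3 CPM after sham surgery at 3 h, 69.7 to 1416 against 15.6 to 138 CPM at 12 h and 63.3 to 458 against 20.1 to 150.4 CPM at 24 h. The sums of 7 neutrophil markers were 10.2 to 61.2 against 1.09 to 8.52 CPM, 11.5 to 1696 against 2.22 to 3.13 CPM and 30.6 to 55.0 against 3.67 to 6.95 CPM. None of these markers was called at 3 h or 24 h, and at 12 h 1 of 5 erythroid markers (*Hba-a1*) and 2 of 7 neutrophil markers (*S100a8* and *S100a9*) were called higher. Of all genes tested, 0.411% were called in either direction at 12 h. Among the neutrophil markers *Camp* was at 0 in MCAO mice at 3 h, *Ltf* and *Retnlg* in sham mice at 12 h, and *Ngp*, *Retnlg* and *Mmp8* in sham mice at 24 h. Their part in the *Srxn1* values was not tested.

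The turn of *Srxn1* was tested as a difference between effects. The effect of MCAO against sham on day 7 differed from the mean of the effects at 3 h, 12 h and 24 h by -1.39 ± 0.25 on the log2 scale (adjusted p = 0.00124). *Srxn1* was the only member called in this contrast, in which 0.476% of all genes were called lower, and the contrast was chosen after the course over time had been seen. Between neighbouring times no member was called, among 0.01% of genes called at each of the first 3 steps and 0% at the last. At unadjusted p the counts below 0.05 were 1, 0, 1 and 3 of 10 members. Over all 19970 genes tested they were 1421, 1015, 1765 and 3231.

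*Prdx1* encodes peroxiredoxin 1, a thiol peroxidase that removes hydrogen peroxide and is a substrate of sulfiredoxin. It lies on chromosome 4 at 116685544 to 116700822 on the plus strand and had 24954 counts in all. In control cortex *Prdx1* stood at 238, 304, 224 and 198 CPM. Sham libraries ranged from 190.2 to 254 CPM at 3 h, 189 to 206 CPM at 12 h and 166 to 224 CPM at 24 h. MCAO libraries ranged from 186 to 254 CPM, 158 to 191 CPM and 193 to 284 CPM at the same times, and the ranges overlapped at each. The highest MCAO library at 24 h was replicate D, which stood apart in striatal and oligodendrocyte markers. On day 3 the MCAO libraries had 179.9, 456, 565, 569 and 612 CPM and the sham libraries 215, 220.2, 217 and 238 CPM. Replicates B to E lay above every sham library and replicate A below them all. On day 7 the MCAO values were 312, 267, 591, 284 and 307 CPM and the sham values 237, 287, 259.5 and 241 CPM, with replicate C alone near the day 3 level.

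The day 3 means of *Prdx1* were 476 ± 176 CPM (SD, n = 5) after MCAO and 222 ± 10.3 CPM (SD, n = 4) after sham surgery, a log2 fold change of 1.10 ± 0.20 (adjusted p = 0.000156). Without replicate A it was 1.31 (adjusted p = 9.18e-08). Against control the day 3 value was 0.98 ± 0.20 (adjusted p = 0.000839), also called, where 2.81% of all genes were called higher. This call was lost with ERCC scaling and in a fit of only the groups compared. When only the groups compared entered the fit, the day 3 difference from sham was 1.09 with an adjusted p of 0.0203, which did not pass. At 3 h, 12 h and 24 h the difference of *Prdx1* from sham was 0.05 ± 0.20, -0.19 ± 0.20 and 0.25 ± 0.21, none of them called. On day 7 it was 0.46 ± 0.20 (adjusted p = 0.142), and 0.19 (adjusted p = 0.594) without replicate C. The day 3 effect of *Prdx1* exceeded the mean effect of the first day by 1.06 ± 0.23 on the log2 scale (adjusted p = 0.00697), the only member called in a contrast that called 0.481% of all genes higher and that was likewise chosen after the course had been seen. That call was lost with ERCC scaling, with the replicate letter as a block and in 11 of 35 fits that each left out 1 library.

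*Txnrd1* encodes cytosolic thioredoxin reductase, which passes electrons from NADPH to thioredoxin. It lies on chromosome 10 at 82833951 to 82897712 on the plus strand and had 4005 counts. Control libraries had 29.6, 25.9, 23.1 and 40.4 CPM of *Txnrd1*. At 3 h the MCAO values were 39.8, 54.3, 50.3, 47.8 and 28.2 CPM and the sham values 38.0, 38.0, 38.1 and 27.2 CPM, with overlap. At 12 h the MCAO libraries had 50.8, 49.0, 87.1, 60.6 and 42.9 CPM and the sham libraries 42.4, 31.8, 27.0 and 40.1 CPM. Every MCAO library lay above every sham library at this time, the closest pair by a narrow margin. At 24 h MCAO gave 37.4, 32.2, 51.3 and 69.1 CPM and sham surgery 27.8, 32.9, 33.5 and 23.1 CPM, again overlapping. The highest of these, MCAO replicate D, also stood apart in striatal (3761 CPM) and oligodendrocyte markers (4897 CPM). On day 3 *Txnrd1* stood at 26.7, 52.0, 76.4, 69.3 and 90.3 CPM after MCAO and 30.5, 30.5, 31.3 and 21.6 CPM after sham surgery. Replicates B to E were above all sham libraries, as for *Prdx1*, and replicate A lay within the sham range. On day 7 the values were 39.2, 36.1, 52.9, 36.9 and 33.2 CPM against 32.0, 35.0, 27.8 and 33.3 CPM, with replicate C the highest.

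The day 3 log2 fold change of *Txnrd1* was 1.15 ± 0.24 against sham (adjusted p = 0.00108) and 1.08 ± 0.25 against control (adjusted p = 0.00275), both called. Leaving out MCAO replicate A gave 1.34 (adjusted p = 2.43e-05), and leaving out sham replicate D gave 1.03 (adjusted p = 0.0118), which ended the call. Scaling to the ERCC spike-ins gave 0.86 with an adjusted p of 0.0176 and a fit of only the groups compared 1.13 with an adjusted p of 0.0232, and neither passed. The call against control was lost in the same 2 settings, and without MCAO replicate C or E or control replicate A, B or C. The difference from sham was 0.32 ± 0.24 at 3 h, 0.72 ± 0.24 at 12 h (adjusted p = 0.121), 0.69 ± 0.26 at 24 h and 0.31 ± 0.25 on day 7, none called. Taken as the mean of the effects at the 5 times, *Txnrd1* was higher after MCAO by 0.64 ± 0.11 on the log2 scale (adjusted p = 2.8e-05), which was called, as 4.51% of all genes were in that direction. With ERCC scaling this mean effect was 0.57 with an adjusted p of 0.000117, short of the size required. Unlike for *Prdx1*, the day 3 effect of *Txnrd1* did not differ from the mean effect of the first day past the threshold (0.57 ± 0.28, adjusted p = 0.342). Whether the 2 genes differed from each other in this respect was not tested.

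**Figure D2:**
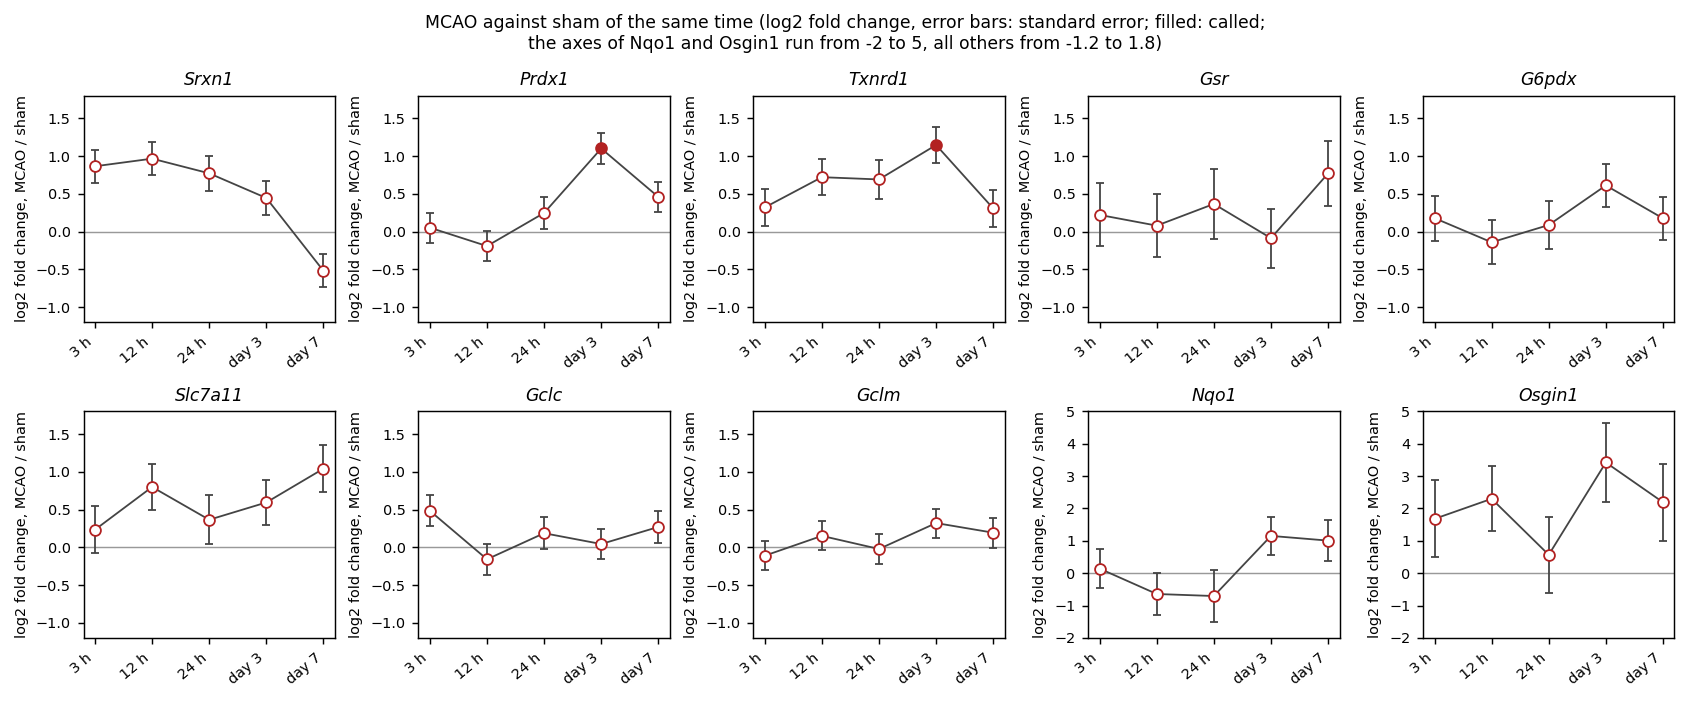
Log2 fold change of MCAO against sham (vertical axis) at 3 h, 12 h, 24 h, day 3 and day 7 (horizontal axis) for the 10 NRF2 target genes, with bars of 1 SE from the edgeR fit. Filled points passed the calling threshold, the axes of *Nqo1* and *Osgin1* are wider than the others, and the filled points are *Prdx1* (1.10) and *Txnrd1* (1.15) on day 3.

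*Gsr* and *G6pdx* serve the same reducing systems as *Txnrd1*. *Gsr* encodes glutathione reductase, which regenerates reduced glutathione, and *G6pdx* encodes glucose-6-phosphate dehydrogenase, which supplies NADPH from the pentose phosphate pathway. *Gsr* (chromosome 8, 33652523 to 33698163, plus strand, 1136 counts) ranged over 11.3 to 17.8 CPM after MCAO and 3.27 to 16.4 CPM after sham surgery on day 7, the time of its largest difference from sham (0.77 ± 0.43, adjusted p = 0.276). At the other 4 times the differences of *Gsr* lay between -0.09 and 0.36. *G6pdx* (chromosome X, 74409483 to 74429194, minus strand, 1053 counts) was at 14.2 ± 4.61 CPM (SD, n = 5) after MCAO and 9.24 ± 4.52 CPM (SD, n = 4) after sham surgery on day 3, where the log2 fold change was 0.61 ± 0.29 (adjusted p = 0.200). Its other differences from sham lay between -0.14 and 0.18. Over the 11 groups, mean *Gsr* ran from 8.02 ± 5.80 CPM in sham day 7 to 15.8 ± 2.79 CPM in sham day 3, and mean *G6pdx* from 8.58 ± 2.68 CPM in sham 3 h to 14.2 ± 4.61 CPM in MCAO day 3 (SD), with each step between neighbouring groups smaller than their SDs. Neither gene was called in any comparison, and their groups overlapped at all times.

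*Slc7a11*, *Gclc* and *Gclm* provide glutathione. *Slc7a11* encodes the cystine and glutamate exchanger xCT, which brings in the cystine for its synthesis, and is known in brain mainly from astrocytes. It lies on chromosome 3 at 49892526 to 50443614 on the minus strand and had 6060 counts. At 12 h *Slc7a11* stood at 39.7, 69.4, 143, 34.7 and 84.0 CPM after MCAO and 32.4, 47.5, 48.4 and 41.3 CPM after sham surgery. Replicates B, C and E were above all sham libraries, A and D among them. On day 3 the MCAO values were 85.4, 69.6, 111, 32.2 and 130.4 CPM and the sham values 59.1, 61.9, 63.1 and 43.1 CPM, and replicate D was the lowest library of both groups. At 12 h and on day 3, MCAO replicate D was lowest in *Slc7a11* and highest in striatal markers within its group. At 3 h MCAO replicate B, with 2113 CPM of striatal markers, was the highest in *Slc7a11* at 73.7 CPM. On day 7 the MCAO libraries had 67.5, 79.9, 47.6, 108 and 112 CPM and the sham libraries 44.0, 44.8, 49.6 and 23.3 CPM. On that day 4 of the 5 MCAO libraries were above all sham libraries, and replicate C, which stood high in macrophage and fibroblast markers, was not. The 9 astrocyte markers summed to 3729 CPM in replicate C and 5625 to 5884 CPM in the other MCAO libraries. After sham surgery they summed to 4427 to 5506 CPM. At 12 h MCAO replicate D had the highest astrocyte sum of its group (5380 CPM) and the lowest *Slc7a11*. On day 3 MCAO replicate E had the lowest astrocyte sum (4500.0 CPM) and the highest *Slc7a11*. The part of astrocytes or of striatal tissue in the *Slc7a11* values was not tested. The log2 fold change against sham was 0.80 ± 0.31 at 12 h (adjusted p = 0.201), 0.59 ± 0.30 on day 3 (adjusted p = 0.246) and 1.04 ± 0.31 on day 7 (adjusted p = 0.0268). None of these was called, while DESeq2 called the day 7 difference, at 1.05 with an adjusted p of 0.00955, as did edgeR without the filter on low counts, at 1.02 with an adjusted p of 0.00688. As the mean of the effects at the 5 times, *Slc7a11* was higher after MCAO by 0.61 ± 0.14 on the log2 scale (adjusted p = 0.00143). This was called, and the call was lost without MCAO replicate C at 12 h, B at 24 h or E on day 3, or without sham replicate D at 3 h or on day 7. It was also lost with ERCC scaling (0.54 with an adjusted p of 0.0115) and with the replicate letter as a block.

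The ligase that makes the first intermediate of glutathione has a catalytic subunit, encoded by *Gclc*, and a modifier subunit, encoded by *Gclm*. *Gclc* (chromosome 9, 77754535 to 77794485, plus strand, 6837 counts) had its largest difference from sham at 3 h, with 105, 118, 70.0, 81.0 and 112 CPM after MCAO and 69.6, 77.7, 66.3 and 64.9 CPM after sham surgery. The ranges overlapped, and the log2 fold change was 0.48 ± 0.20 (adjusted p = 0.489). Over the same MCAO libraries the 7 oligodendrocyte markers summed to 3236, 3937, 1656, 1998 and 2884 CPM. Over the sham libraries, in the same order, they summed to 2506, 2004, 1826 and 3176 CPM. Sham replicate D, highest of these 4 in oligodendrocyte markers, was the lowest in *Gclc*. The 6 striatal markers tested summed to 2169, 2113, 349, 406 and 783 CPM after MCAO. After sham surgery the striatal sums were 520, 376, 358 and 1412 CPM. At later times the differences of *Gclc* lay between -0.16 and 0.27. The 24 h value was 0.19, and -0.14 without MCAO replicate D, which had 129.6 CPM of *Gclc* and stood apart in striatal and oligodendrocyte markers. The part of these markers' cells in the *Gclc* values was not tested. *Gclm* (chromosome 3, 122245557 to 122270732, plus strand, 4775 counts) differed from sham by values between -0.11 and 0.32 over the 5 times, with the highest value on day 3 (adjusted p = 0.340). Mean *Gclc* ran from 51.9 ± 8.84 CPM in sham day 7 to 97.4 ± 20.9 CPM in MCAO 3 h and mean *Gclm* from 41.2 ± 7.08 CPM in sham day 7 to 57.8 ± 8.55 CPM in MCAO day 3 (SD) over the 11 groups. Neither subunit was called in any comparison. The SE of their differences from sham, 0.19 to 0.22, sets the size of change that could be seen.

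*Nqo1* and *Osgin1* were counted so sparsely that 1 count moved a library's value. *Nqo1*, on chromosome 8 at 107388225 to 107403206 on the minus strand, encodes a quinone reductase and had 253 counts in all 48 libraries. On day 3 the MCAO libraries had 7, 7, 16, 8 and 13 counts of *Nqo1* and the sham libraries 6, 6, 4 and 4 counts. In CPM every MCAO library was above every sham library, and the pooled levels had a ratio of 2.34 (95% exact interval 1.37 to 4.14, counting error only). The fit gave 1.15 ± 0.60 (adjusted p = 0.254). On day 7 the counts were 10, 12, 4, 3 and 8 after MCAO and 0, 6, 8 and 2 after sham surgery, a pooled ratio of 2.17 (1.18 to 4.18), with overlap between the groups. At 12 h and 24 h *Nqo1* differed from sham by -0.64 ± 0.64 and -0.71 ± 0.79, opposite in sign to the later days and not called.

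*Osgin1*, on chromosome 8 at 119434124 to 119446256 on the plus strand, encodes an oxidative stress induced growth inhibitor and had 92 counts in all. On day 3 *Osgin1* had 1, 1, 8, 3 and 5 counts in the MCAO libraries and 1, 0, 0 and 0 in the sham libraries. The ratio of the pooled levels was 16.5 with an interval of 2.6 to 687, since the sham group held 1 count. At 12 h the counts were 3, 3, 7, 1 and 14 after MCAO and 1, 1, 2 and 1 after sham surgery, a pooled ratio of 5.01 (1.91 to 16.6). Replicate E held 14 of the 28 counts, and without it the ratio was 3.02 (1.03 to 10.7). The neutrophil markers summed to 11.5, 32.0, 169.5, 175 and 1696 CPM in the same 5 libraries, highest in replicate E, and their part in this value was not tested. On day 7 the *Osgin1* counts were 0, 4, 6, 0 and 2 after MCAO and 0, 1, 0 and 1 after sham surgery. The pooled ratio was 5.64 (1.26 to 51.9), and 3.47 (0.62 to 35.1) without replicate C. The adjusted p was 0.264 at 12 h, 0.0762 on day 3 and 0.258 on day 7. *Osgin1* was called in 1 contrast, the mean of the effects at the 5 times (adjusted p = 0.00453). Its fitted fold change there depends on the prior count and is not given. The call was lost without MCAO replicate D at 24 h or at 3 h, and with the replicate letter as a block.

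Counted together, 0 of 10 members were called against sham at 3 h, 12 h, 24 h and day 7, where 0.11%, 0.411%, 0.0901% and 3.5% of all genes tested were called. At unadjusted p below 0.05 the counts were 2, 4, 2 and 3 members, against 1688, 2913, 1757 and 4697 of the 19970 genes tested. DESeq2 called *Srxn1* at 12 h and *Slc7a11* on day 7. On day 3, 2 of 10 were called higher. Against control, 1 of 10 was called higher at 12 h (*Srxn1*), 1 at 24 h (*Srxn1*) and 2 on day 3 (*Prdx1* and *Txnrd1*), and none at 3 h or day 7 (0.13% and 1.5% of all genes called). For those last times the unadjusted counts were 3 and 1 members, against 1825 and 2981 of the 19970 genes tested. DESeq2 called 1 (*Srxn1*) at 3 h and 0 on day 7. The comparisons with sham and with control use the same MCAO libraries. In the mean of the effects at the 5 times, *Txnrd1*, *Slc7a11* and *Osgin1* were called higher, and *Srxn1* (0.50 ± 0.10, adjusted p = 0.000190) and *Prdx1* (0.33 ± 0.09, adjusted p = 0.00734) passed on p and not on size. The median log2 fold change of the 10 members against sham was 0.23 at 3 h, 0.12 at 12 h, 0.31 at 24 h, 0.60 on day 3 and 0.38 on day 7, against medians of all genes between 0.00 and 0.06. The members were above 0 in 9, 6, 8, 9 and 9 of 10 cases at these times.

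Groups that did not overlap were found in 7 of the 50 pairs of member and time. *Srxn1* lay wholly above sham at 3 h, 12 h and 24 h and wholly below it on day 7, *Txnrd1* wholly above at 12 h, and *Nqo1* and *Osgin1* wholly above on day 3. On day 3, 4.33% of all genes tested lay wholly above sham, and the shares for the other times are those given for *Srxn1*.

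The regulators of the pathway were read beside the targets. *Nfe2l2*, which encodes NRF2 itself, rose on day 3 by 1.67 ± 0.31 (adjusted p = 0.000190) and on day 7 by 1.50 ± 0.32 (adjusted p = 0.00181). Its level was 64.6 ± 38.2 CPM (SD, n = 5) after MCAO and 20.2 ± 1.49 CPM (SD, n = 4) after sham surgery on day 3, with MCAO libraries from 19.2 to 117 CPM. *Keap1*, the adaptor that restrains NRF2, was at 143 ± 4.47 CPM (SD, n = 5) against 138 ± 17.4 CPM (SD, n = 4) on the same day and was not called at any time. *Bach1*, the repressor at the same promoter element, rose on day 3 by 1.39 ± 0.31 (adjusted p = 0.00205). *Maff*, a small MAF partner, rose at 3 h by 3.75 ± 0.76 (adjusted p = 0.00965), from 1.21 ± 1.11 CPM (SD, n = 4) to 16.9 ± 2.76 CPM (SD, n = 5), a call that was lost without any 1 of the 9 libraries compared. Of the 10 regulators tested, 1 rose at 3 h, 2 on day 3 and 1 on day 7, and none fell. Of all genes tested, 0.11% were called in either direction at 3 h and 3.5% on day 7. On day 3, 3.76% of all genes were called higher. The day 7 call of *Nfe2l2* was lost without MCAO replicate C, and 1 of the 2 day 3 calls was lost without MCAO replicate C or sham replicate D of that day. The transcript level of *Nfe2l2* says nothing of NRF2 protein or its place in the cell, which were not measured here.

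Of all genes tested, 3.76% were called higher on day 3, and the median log2 fold change of all was 0.012. At 12 h 0.411% and on day 7 3.5% of all genes were called in either direction. Among 21 other NRF2 targets tested, 5 rose on day 3 and none fell, with 20 of 21 above 0 and a median of 0.48. They were *Hmox1*, heme oxygenase 1 (4.76 ± 0.83, adjusted p = 8.6e-05), *Blvrb*, biliverdin reductase B (1.14 ± 0.27), *Abcc4*, an efflux transporter (1.15 ± 0.30), *Taldo1*, transaldolase of the pentose phosphate pathway (0.71 ± 0.15), and *Fth1*, the ferritin heavy chain (0.70 ± 0.17). *Hmox1* libraries on day 3 ranged from 1.07 to 109 CPM after MCAO, against 2.13 ± 1.05 CPM (SD, n = 4) after sham surgery. *Hmox1* also rose at 12 h (5.04 ± 0.98, adjusted p = 0.00277), a call lost in 5 of 9 fits without 1 library, and *Ftl1*, the ferritin light chain, on day 7 (3.97 ± 0.90, adjusted p = 0.00311), a call lost without MCAO replicate C or sham replicate B or D. The value of *Ftl1* is uncertain, since the annotation lists pseudogene copies of it that can share reads. The number called on day 3 ranged from 1 (without sham replicate C) to 6 when single libraries were left out, and was 1 with ERCC scaling or with only the groups compared in the fit. Of 24 further genes of glutathione, thioredoxin and peroxide metabolism, 2 rose on day 3, where 3.76% of all genes were called higher. Both encode peroxidases: *Gpx1* (1.16 ± 0.20, adjusted p = 6.43e-05) and *Prdx6* (1.09 ± 0.17, adjusted p = 9.87e-06). In this list 20 of 24 were above 0 on day 3, with a median of 0.25, and *Gpx1* was the 1 gene that also rose on day 7 (0.76 ± 0.20), a call lost in 7 of 9 such fits.

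**Figure D3:**
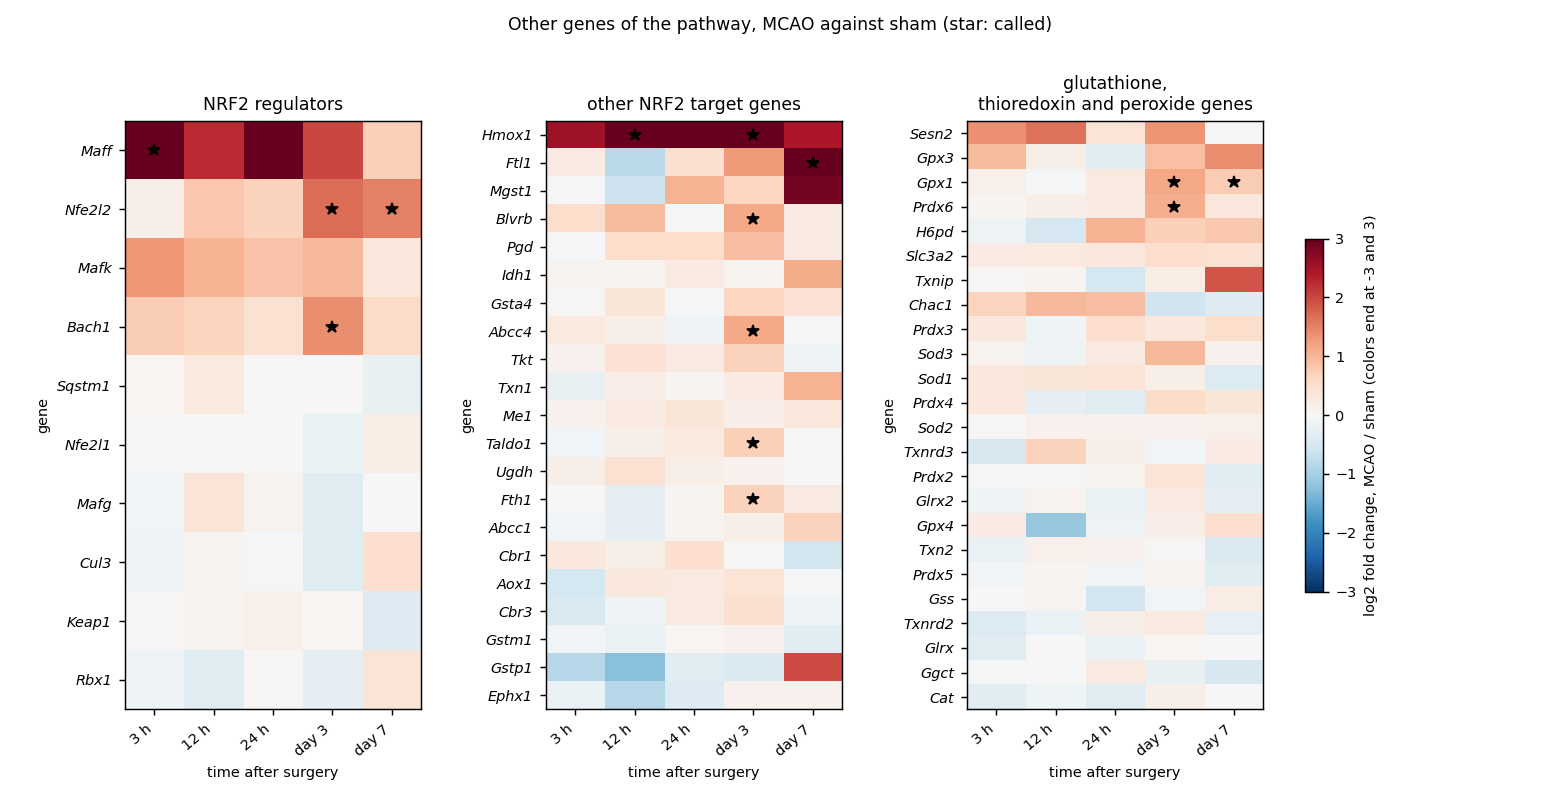
Log2 fold change of MCAO against sham at 5 times (columns) for 10 NRF2 regulators, 21 other NRF2 targets and 24 genes of glutathione, thioredoxin and peroxide metabolism (rows). Colours run from blue (lower) to red (higher) and end at 3 in either direction, stars mark called genes, and most stars stand in the day 3 column, where 2, 5 and 2 genes of the 3 lists were called. On that day 3.76% of all genes tested were called higher.

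Markers of microglia moved with the day 3 results. The summed level of the 10 microglial markers was 342 to 437 CPM in sham mice and 773 to 3175 CPM in MCAO mice on day 3, and 476 to 609 CPM against 1053 to 4519 CPM on day 7. On day 3, 8 of these 10 markers were called higher, with a median log2 fold change of 2.21, and on day 7, 6 of 10 with a median of 1.92, and none was at 0 in any of these groups. Of all genes tested, 3.76% were called higher on day 3, and 3.5% were called in either direction on day 7. The 5 monocyte and macrophage markers summed to 12.3 to 23.0 CPM in sham mice and 31.5 to 873 CPM in MCAO mice on day 3, with 2 of 5 called higher and none at 0. The sum of 9 astrocyte markers on day 3 was 4888 to 5277 CPM after sham surgery and 4500.0 to 5445 CPM after MCAO, with 2 of 9 called higher. Other markers differed on day 3 as well. Over replicates A to E, the 6 fibroblast markers summed to 148, 359, 638, 78.1 and 1316 CPM against 75.0 to 144 CPM in sham mice (3 of 6 called higher). The 6 endothelial markers summed to 255, 358, 524, 304 and 496 CPM against 254 to 264 CPM (2 of 6 higher). The 7 neutrophil markers summed to 5.87, 16.7, 609, 12.7 and 74.0 CPM against 0 to 3.23 CPM (2 of 7 higher), with *Ltf*, *Retnlg* and *Mmp8* at 0 in sham mice. The 5 erythroid markers summed to 97.7 to 478 CPM against 12.2 to 23.6 CPM (3 of 5 higher), with *Alas2* at 0 in sham mice, and the 10 neuronal markers to 8396 to 12410.0 CPM against 12110.0 to 13740.0 CPM (1 of 10 lower). The 7 oligodendrocyte markers summed to 1666 CPM in replicate A and 3310 to 4831 CPM in replicates B to E. In sham mice they summed to 1681 to 3870 CPM. Replicate A, the MCAO library of day 3 lowest in microglial markers, was also the lowest in *Prdx1* and *Txnrd1*. It was also lowest in monocyte and macrophage, oligodendrocyte, endothelial, neutrophil and erythroid markers and highest in neuronal markers. In fibroblast markers replicate D was the lowest. Replicate C of day 7, the highest in microglial markers, was also the highest MCAO library of that day in *Prdx1* and *Txnrd1*. At 12 h MCAO replicate C had 87.1 CPM of *Txnrd1* at a microglial sum of 314 CPM, the lowest sum of its group. On day 3 the MCAO libraries had the same order in *Srxn1* as in the microglial sum, from replicate A over B, D and E to C. On day 7 *Srxn1* did not have this order, as replicate C was among the lower MCAO libraries, and its first-day values came at microglial sums of 361 to 464 CPM at 3 h and 314 to 687 CPM at 12 h. At 24 h the microglial sum was 652 to 861 CPM after MCAO and 392 to 518 CPM after sham surgery. The part of these cells in the results was not tested.

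**Figure D4:**
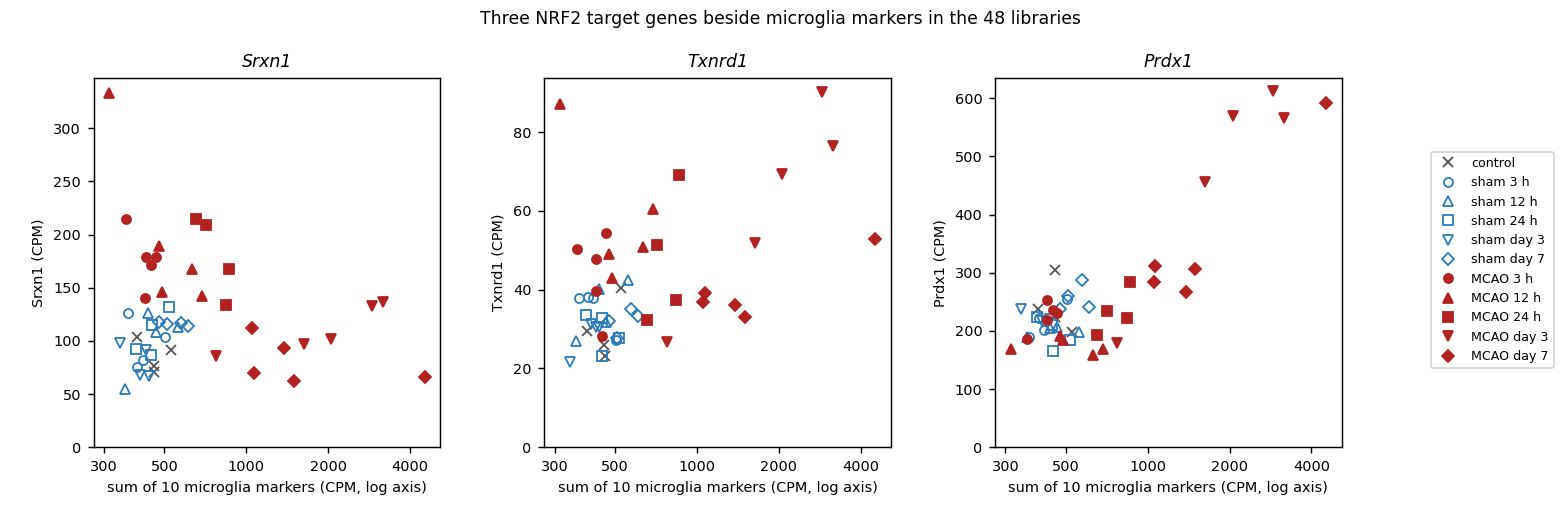
CPM of *Srxn1*, *Txnrd1* and *Prdx1* (vertical axes) against the summed CPM of 10 microglial markers (horizontal log axis) in the 48 libraries, 1 point per library. The MCAO libraries of day 3 spread from 773 to 3175 CPM of the markers. The highest *Prdx1* points stand at the right and the highest *Srxn1* points at the left. *Txnrd1* has high points on both sides, 90.3 CPM in MCAO day 3 replicate E and 87.1 CPM in MCAO 12 h replicate C.

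Genes most like *Prdx1* and *Txnrd1* were those with the highest Pearson r of log2(CPM + 1) over the 48 libraries, among 11739 genes with a mean of at least 5 CPM. The libraries share their groups and tissue makeup, so these values only describe the data set. The genes nearest to *Prdx1* were *Gpx1* (r = 0.886), *Itgb1* (0.88) and *Ctsd* (0.874), and those nearest to *Txnrd1* were *Hmox1* (0.826), *Myh9* (0.823) and *Timp1* (0.821). No gene stood on both short lists.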

How the data were processed

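RNA of single mice was sequenced from transcript 3′ ends (QuantSeq 3′ FWD, with ERCC spike-ins). Per the study's methods, the authors trimmed the reads, removed ribosomal reads, aligned them with STAR 2.5.2b to GRCm38 with the spike-ins and deposited raw counts per gene from htseq-count in union mode, with Gencode annotation. They also deposited a matrix of log2 variance-stabilized values, which was not used. Identifiers without their version were given symbols from a list of gene names and, where it had none, from Gencode vM21 (46488 of 46983). The coordinates printed are those of Gencode vM21. Rows naming no gene and the 92 ERCC rows stayed out of library sizes. By median, reads with no feature came to 23.5%, reads not uniquely aligned to 33.5% and ambiguous reads to 0.4% of a library, and ERCC counts ranged from 3.71% to 5.97%. Gene counts per library had a median of 1935856, and no pair of libraries was identical.

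Genes with more than 10 counts in all were fitted in edgeR 4.0.16 (R 4.3.3) by glmQLFit over the 48 libraries with 1 coefficient per group, TMM scaling and no covariate. Contrasts were tested by glmQLFTest with Benjamini-Hochberg adjustment over all genes tested. Samples were grouped by their labels. edgeR was used although the study used DESeq2, which was run as an alternative (version 1.42.0), as were its size factors, spike-in scaling, other filters and thresholds, a fit of only the groups compared, a replicate block and leaving out each library. The scripts were tested on simulated data. Intervals of pooled counts are exact at 95% and cover counting error only. All 10 members are named. Of each pathway list, up to 6 genes called against sham with the largest change are named, *Nfe2l2*, *Keap1* and *Hmox1* always, and for each member called against sham the 3 genes most like it. The members and all lists were chosen with earlier results of these data known. Whether counting used strand is not given in the sources used here.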

Additional observations from a re-analysis of the deposited data

Results flagged for a closer look

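Among the 110 groups of 4 or 5 libraries (10 members in 11 groups), 8 held a library far from the others by Dixon's test at 95%. Chance alone sets such a library apart in about 1 in 20 groups. For *Srxn1*, MCAO replicate C at 12 h was the highest at 333 CPM. For *Txnrd1*, sham replicate D was the lowest at 3 h (27.2 CPM) and on day 3 (21.6 CPM). For *Prdx1*, MCAO replicate C on day 7 was the highest at 591 CPM, the library that also stood apart in macrophage and fibroblast markers. The other 4 were *Osgin1* values, which rest on few counts: control replicate C at 0 CPM, the lowest of its group, and sham replicates D at 3 h (1.09 CPM), D at 24 h (2.10 CPM) and A on day 3 (0.363 CPM), each the highest.

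The effect of MCAO against sham differed between times for *Prdx1*, by 1.06 between day 3 and the mean of 3 h, 12 h and 24 h, and for *Srxn1*, by -1.39 between day 7 and that mean. Both were tested as interaction terms in edgeR, over contrasts chosen after the data had been seen.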

How the results depend on the processing

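Numbers of members called depended on the threshold, the scaling and the samples in the fit. With DESeq2, with no filter on low counts, or with an adjusted p below 0.05 and no minimum fold change, 1 member each was called against sham at 12 h (*Srxn1*) and on day 7 (*Slc7a11*), 1 against control at 3 h (*Srxn1*) and 2 against control at 12 h (*Srxn1* and *Txnrd1*), and the last setting also gave 5 in the mean of the effects at the 5 times. Scaling to the ERCC spike-ins left 1 call against sham on day 3 (*Prdx1*), 0 against control at 12 h, 24 h and day 3, 0 in the contrast of day 3 with the first day and 1 in the mean effect (*Osgin1*), where *Txnrd1* missed the size and *Slc7a11* both size and p. It moved the median log2 fold change of all genes against sham by -0.10 at 3 h, -0.09 at 12 h, 0.14 at 24 h, -0.22 on day 3 and 0.14 on day 7, and reversed small differences from sham of *Nqo1* (-0.0045) and *Prdx1* (-0.044) at 3 h, *Gsr* at 12 h (-0.052), *Gclm* at 24 h (0.12) and *Gclc* on day 3 (-0.22). In a fit of only the groups compared, which estimates the spread from fewer libraries, 0 members were called against sham on day 3 and against control at 12 h and on day 3, and 1 against control at 3 h. The causes of the other shifts were not tested.

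Replicate letters are shared by the groups, but nothing in the labels pairs the mice. Correlations of same-lettered deviations ran from -0.26 to 0.15 over the 5 times, and 1 or 2 of 4 letters a time correlated best with their own letter. With a replicate block, 0 members were called against control at 24 h, 0 in the contrast of day 3 with the first day and 1 (*Txnrd1*) in the mean effect, where *Slc7a11* missed the size (0.52 with an adjusted p of 0.00560) and *Osgin1* the p (0.0125), and *Gsr* at 12 h was reversed (-0.013). The block changed no other member count.

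Leaving out single libraries gave 1 to 2 members called against sham on day 3 and 0 to 1 at 12 h (1 without MCAO replicate D), 0 to 1 against control at 3 h, 12 h and 24 h and 1 to 2 on day 3, 2 to 3 in the mean effect and 0 to 1 in the contrast of day 3 with the first day. *Srxn1* stayed called in the contrast of day 7 with the first day without any 1 library. Differences from sham that changed sign ran from -0.38 to 0.36 (*Gsr*, 12 h), -0.49 to 0.099 (*Gsr*, day 3), -0.26 to 0.0079 (*G6pdx*, 12 h), -0.087 to 0.22 (*G6pdx*, 24 h), -0.034 to 0.45 (*G6pdx*, day 7), -0.25 to 0.15 (*Gclm*, 24 h), -0.14 to 0.37 (*Gclc*, 24 h), -0.041 to 0.19 (*Gclc*, day 3), -0.13 to 0.47 (*Nqo1*, 3 h) and -0.0081 to 0.13 (*Prdx1*, 3 h). None of these was called in any setting. DESeq2 size factors changed no member call, and edgeR's filterByExpr removed *Osgin1*. The share of all genes called against sham in the main fit was 4.02% on day 3 and 3.5% on day 7. In the settings other than leaving out single libraries it ranged from 2.02% to 8.23% and from 1.84% to 9.24%. Leaving out single libraries gave 2.22% to 6.79% and 1.21% to 3.37%.

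Depth limits *Nqo1* and *Osgin1* first, at 253 and 92 counts in all, and 4 or 5 mice a group limit every comparison.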
